A study of Mus musculus with 12 samples.

Results

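Kinesins and tubulins, the motor proteins that walk on microtubules and the proteins that microtubules are built from, were followed from the mouse oocyte to the 2-cell embryo in the presence and absence of Pabpn1l. The genes were all entries of the deposited expression table whose symbol begins with Kif and a digit, or with Tuba, Tubb or Tubg and a digit. They numbered 36 of the 11298 genes of the table: 22 kinesins, 6 alpha-tubulins, 6 beta-tubulins and 2 gamma-tubulins. By their known roles, the kinesins comprised 12 that act in the spindle or in cell division, 5 that carry cargo or membranes and 5 that serve cilia or related structures. The samples were 12 libraries of polyadenylated RNA (Smart-seq2, which copies full-length transcripts from an oligo-dT primer) from C57BL/6 mice, each made from 10 oocytes or embryos. They formed 6 groups of 2: wild-type (WT) and Pabpn1l knockout (KO) oocytes at the germinal vesicle (GV) stage, before meiosis resumes, WT and KO 1-cell embryos, and WT and KO 2-cell embryos. Oocytes were taken from the animal and embryos were cultured, per the labels' protocols. The labels do not state whether KO describes the mother, the embryo or both, how the mice were mated, or whether a group's libraries come from different animals, so p-values here reflect only library-to-library spread, which may be technical. Since every library pooled 10 oocytes or embryos, less transcript in each of them and no transcript in some of them cannot be told apart.

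Alpha- and beta-tubulin join as dimers that stack into the microtubule wall, and gamma-tubulin forms the ring on which a new microtubule starts. Kinesins use ATP to walk along microtubules, to slide them past each other or to take their ends apart, and so build the spindle, move chromosomes and divide the cell. The growing oocyte stores messenger RNA for the meiotic and early cleavage divisions, much of this store is degraded around fertilization and in the first cell cycles, and the mouse embryo starts its main wave of transcription at the 2-cell stage. The protein made from Pabpn1l binds poly(A) tails and is known from oocytes and cleavage embryos.

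The labels were first set against the targeted gene. Pabpn1l was at 220.1 and 204 FPKM (mapped fragments scaled to transcript length and to the size of the library) in the WT GV libraries and at 7.23 and 4.98 in the KO GV libraries. It was at 16.4 and 12.2 in WT and 2.57 and 4.55 in KO 1-cell embryos, and at 1.18 and 1 in WT against 1.00 and 1.90 in KO 2-cell embryos, where the groups overlapped and the gene checks nothing. No value of the table lies below 1 FPKM, which is called the floor. In the 8 embryo columns the values had been multiplied by 1 factor per library, at the 1-cell stage 0.269 and 0.212 for WT against 0.432 and 0.552 for KO, at the 2-cell stage 0.116 and 0.123 for WT against 0.13 and 0.121 for KO, and what these factors were based on is not given in the sources used here. Results are given on the deposited scale, with the value before the factor beside those that turn on it. On the deposited scale the median gene of the table was 0.57 higher in KO than in WT 1-cell embryos (log2) and 1.49 lower in WT 1-cell embryos than in WT GV oocytes, and both medians were 0 before the factor. On that scale, genes no higher than the highest floor of a comparison in all its libraries enter as exactly 0. A median of 0 there does not show that levels were unshifted. Since FPKM carry no read numbers, library depth is unknown. All 8 oocyte markers listed were in the table, with sums of 2446 to 3313 FPKM in WT and 7080 to 7567 in KO 1-cell embryos and of 753.4 to 784.2 in WT and 1292 to 1382 in KO 2-cell embryos. Of 7 transcripts known from the 2-cell stage 5 were in the table, with sums of 5.61 to 6.14 FPKM in WT and 24.3 to 27.7 in KO 1-cell embryos, where 4 of the 5 were at the floor in each group, and of 11.98 to 12.85 in WT and 6.403 to 14.9 in KO 2-cell embryos, where the groups overlapped. Their sums were higher in GV oocytes, at 43.19 to 49.51 FPKM in WT and 40.4 to 47.5 in KO. This sum therefore does not mark the 2-cell stage alone in these data. Of the markers of cumulus and granulosa cells 3 of 11 were in the table, with sums of 28.62 to 34.37 FPKM in the 4 oocyte libraries, 7.09 to 8.48 in WT and 11.21 to 13.82 in KO 1-cell embryos, and all at the floor in 2-cell embryos. Of the markers of sperm 3 of 6 were in the table and of those of blood 2 of 5, with sums in embryos of at most 7.025 and 3.704 FPKM. In GV oocytes the sperm markers summed to 59.12 to 72.01 FPKM in WT and 72.08 to 73.14 in KO. The sperm markers measured here thus cannot check for sperm.

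In GV oocytes the beta-tubulins had the highest summed level of the families, and the kinesins came next. The summed FPKM of the 6 beta-tubulins was 2168 and 1885 in the WT libraries, that of the 6 alpha-tubulins 441 and 416, that of the 2 gamma-tubulins 98.6 and 101, and that of the 22 kinesins 820 and 692. Tubb4b, a beta-tubulin found in many tissues and in cilia, had the highest level of all members, at 1265 and 1133 FPKM in WT against 1272 and 1044 in KO GV oocytes. Next among the beta-tubulins came Tubb6 at 324 and 273, Tubb2a at 261 and 227 and Tubb3, best known from neurons, at 236 and 169 FPKM in WT; the ranges of Tubb2a and Tubb3 overlapped. Among the alpha-tubulins, Tuba3a and Tuba4a shared the top, at 172 and 147 and at 167 and 164 FPKM in WT, and their ranges overlapped. Of the gamma-tubulins, Tubg2 was above Tubg1, the isotype that most somatic cells use, with 78.1 and 79 against 20.5 and 22.2 FPKM in WT.

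Among the kinesins of the oocyte, those of division led. Kif22, a chromosome-bound kinesin that pushes chromosome arms toward the spindle equator, was at 196 and 144 FPKM in WT GV oocytes. Kif23, the motor of centralspindlin at the central spindle, was at 172 and 146 FPKM, so that the ranges of these top kinesins overlapped. Kif2c, a kinesin-13 that takes microtubule ends apart and corrects faulty chromosome attachments, was at 70.1 and 43.2 FPKM, and Kif4, a chromosome-bound kinesin that sets the length of the central spindle, at 55.2 and 50.6. Kif11, the kinesin-5 that pushes the spindle poles apart, was lower, at 15.9 and 12.7 FPKM. Kif17, a kinesin-2 motor of cilia and dendrites, was the exception among the ciliary kinesins, at 112 and 109 FPKM, while Kif3a and Kif3b, the kinesin-2 subunits that drive intraflagellar transport, were at 13.2 and 12 and at 2.06 and 2.43. The cargo kinesins were all below 10 FPKM in the WT oocyte libraries, from Kif13b at 1.2 and 1.19 to Kif5c, a kinesin-1 heavy chain, at 8.78 and 7.64 and Kif5b at 7.12 and 9.46. Of all 36 members, 1 (Tuba1a) was at the floor in both WT GV libraries and 0 in both KO GV libraries, against 5.65% and 6.12% of all genes. The heat map of all members shows these levels and their course.

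**Figure D1:**
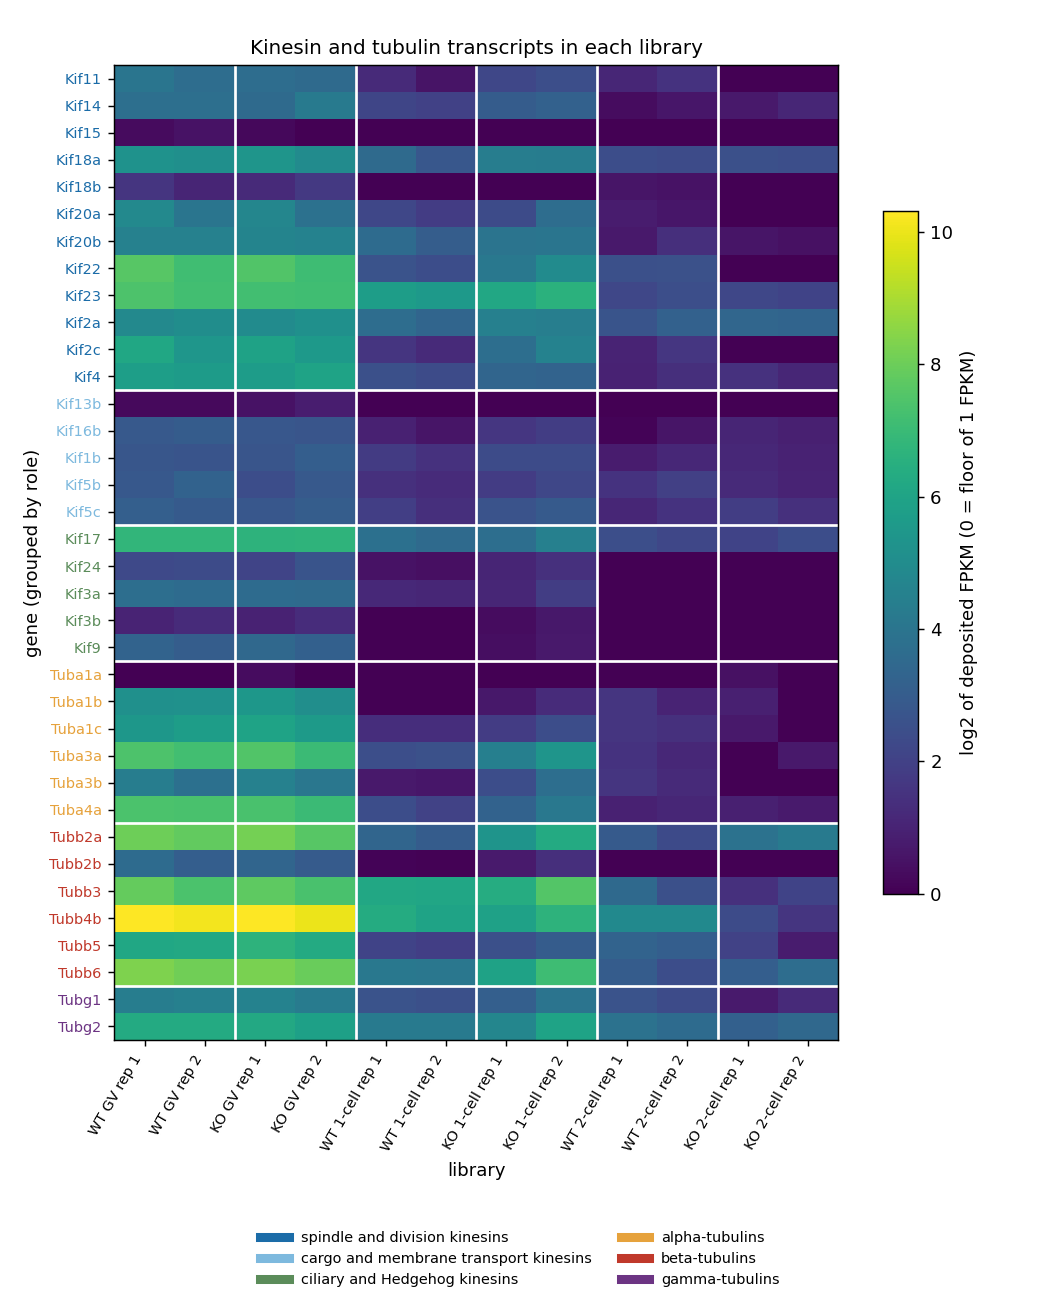
Log2 of the deposited FPKM of the 36 kinesin and tubulin genes (rows, grouped and coloured by role) in each of the 12 libraries (columns). Dark cells are at the floor of 1 FPKM; 13 members were at the floor in both KO 2-cell libraries and 8 in both WT 2-cell libraries, against 1 in both WT GV libraries; of all 11298 genes 52.5%, 43.8% and 5.65% were.

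The start of each gene was read from RefSeq promoters (250 bases before to 50 bases after the annotated start, build GRCm38.p6), which held 30 of the 36 members; mm9 is the build named for the FPKM in the submitters' processing notes, and genes were joined by symbol. No entry was matched for Tubb2b, Tubb6, Tubg1, Kif20a, Kif5b and Kif13b. Those of 5 members whose values carry the results below are printed 5′ to 3′ on the strand of the gene, with capitals for the core of the cell cycle homology region, known from promoters of genes of mitosis (TTTGAA, read on the other strand as TTCAAA), and for the CCAAT box (CCAAT, on the other strand ATTGG). No match of one motif overlaps a match of the other in them. Kif11, Kif22 and Kif2c, 3 of the division kinesins that were at the floor in both KO 2-cell libraries, lie at chr19:37376132-37376431 on the plus strand, chr7:127042371-127042670 on the minus strand and chr4:117178723-117179022 on the minus strand. Tubb4b and Tubb2a, the beta-tubulins that moved in opposite directions, lie at chr2:25224653-25224952 on the minus strand and chr13:34077959-34078258 on the minus strand.
Kif11: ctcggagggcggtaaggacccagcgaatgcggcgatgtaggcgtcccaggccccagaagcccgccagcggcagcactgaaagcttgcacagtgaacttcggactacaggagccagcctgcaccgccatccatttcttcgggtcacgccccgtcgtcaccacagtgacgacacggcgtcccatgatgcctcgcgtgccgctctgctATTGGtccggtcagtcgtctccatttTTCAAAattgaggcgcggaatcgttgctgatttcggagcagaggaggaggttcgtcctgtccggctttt
Kif22: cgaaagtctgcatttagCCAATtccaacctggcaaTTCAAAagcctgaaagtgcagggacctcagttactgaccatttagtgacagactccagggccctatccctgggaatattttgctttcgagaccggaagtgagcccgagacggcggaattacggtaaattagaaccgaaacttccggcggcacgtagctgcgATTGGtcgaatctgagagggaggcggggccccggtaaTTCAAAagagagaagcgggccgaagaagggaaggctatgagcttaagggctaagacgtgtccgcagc
Kif2c: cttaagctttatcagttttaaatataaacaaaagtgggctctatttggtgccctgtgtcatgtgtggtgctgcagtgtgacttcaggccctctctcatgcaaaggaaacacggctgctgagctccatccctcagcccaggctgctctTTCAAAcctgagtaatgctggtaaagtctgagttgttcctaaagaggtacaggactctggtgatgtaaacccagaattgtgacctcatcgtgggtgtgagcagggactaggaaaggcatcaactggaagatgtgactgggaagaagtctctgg
Tubb4b: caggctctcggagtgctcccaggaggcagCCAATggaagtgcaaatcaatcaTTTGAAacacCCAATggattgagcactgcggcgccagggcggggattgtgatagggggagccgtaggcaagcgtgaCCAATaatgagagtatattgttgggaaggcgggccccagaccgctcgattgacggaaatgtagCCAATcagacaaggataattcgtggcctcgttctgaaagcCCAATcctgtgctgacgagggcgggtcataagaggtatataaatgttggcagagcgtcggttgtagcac
Tubb2a: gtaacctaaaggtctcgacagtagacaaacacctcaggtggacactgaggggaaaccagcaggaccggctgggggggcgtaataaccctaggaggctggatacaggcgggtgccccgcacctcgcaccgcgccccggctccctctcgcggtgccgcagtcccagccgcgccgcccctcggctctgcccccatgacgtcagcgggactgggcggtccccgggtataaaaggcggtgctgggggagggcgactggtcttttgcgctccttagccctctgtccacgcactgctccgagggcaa
TTTGAA or its reverse complement was present in 11 of the 30 member promoters (36.67%) and in 12.65% of the 8024 promoters of genes in the table. It was present in 9 of the 11 promoters of division kinesins (81.82%), those of Kif4, Kif11, Kif14, Kif15, Kif18b, Kif20b, Kif22, Kif23 and Kif2c, and otherwise in those of Tuba3b and Tubb4b. Its first base stood 19 bases before the start in Kif11, 215 and 17 bases before it in Kif22, 103 in Kif2c and 198 in Tubb4b. In Kif4, Kif18b, Kif20b and Kif23 every match of TTTGAA began after the start, within the 50 bases read there. CCAAT on either strand was present in 17 member promoters (56.67%) against 39.88% of those of the table, and both motifs in 8 (26.67%) against 5.546%. The promoter of Tubb2a held neither. These are matches of letters in a window of 300 bases.

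From the WT GV oocyte to the WT 1-cell embryo, 35 of the 36 members were lower on the deposited scale and 0 higher (limma, adjusted p under 0.05 with Benjamini-Hochberg adjustment over 11298 genes), where 85.8% of all genes were lower and 0.0354% higher. The median member was 2.04 lower on the log2 scale, and the median of all genes 1.49 lower. Before the factor 17 members were lower and 5 higher, against 26.8% and 11.2% of all genes. The medians were -0.22 and 0, with genes at the common floor counted as 0. Under quantile normalization, which gives every library the same distribution of values, 13 were lower and 11 higher, against 23.8% and 33.4%, and of the 11 Kif13b and Kif15 were at the floor in both WT 1-cell libraries as deposited. The 10 largest falls on the deposited scale were those of 8 tubulins and of the kinesins Kif22 and Kif2c.

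Tuba4a went from 167 and 164 FPKM in WT GV oocytes to 5.47 and 4.09 in WT 1-cell embryos, a log2(FPKM + 1) difference of -4.86 ± 0.25 (SE; limma adjusted p = 2.3e-07) on the deposited scale and of -3.0 (limma adjusted p = 1.3e-05) before the factor. Kif22 went from 196 and 144 to 6.24 and 5.35 FPKM, a difference of -4.64 ± 0.27 (limma adjusted p = 3.8e-07), and Kif2c from 70.1 and 43.2 to 3.03 and 2.32, a difference of -3.94 ± 0.32 (limma adjusted p = 2.6e-06). Before the factor these kinesins were lower by smaller amounts, with differences of -2.75 and -2.21. All WT 1-cell values of these 3 genes lay below all WT GV values. Among the beta-tubulins, Tubb2a had 10.2 and 8.0, Tubb6 17.4 and 17.1, Tubb4b 81.3 and 63.1 and Tubb5, a widely expressed isotype, 4.27 and 3.78 FPKM in WT 1-cell embryos. Their log2 differences from the WT GV oocyte were -4.60, -4.03, -4.04 and -3.88, and before the factor -2.65, -2.03, -2.0 and -2.05, all called on both scales. Tuba1b was at the floor in both WT 1-cell libraries from 36 and 37.3 FPKM, so it was at least 36.7-fold lower on the deposited scale.

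The sum over all genes in WT 1-cell embryos was 19.2% of that in the WT GV oocyte. Above this percentage lay 18 of the 36 members (50%), 13 of the 29 that were above the floor in both WT 1-cell libraries (44.8%), and 66% of all genes, or 57.6% of those above the floor there. The 13 were Kif1b, Kif20b, Kif5c, Kif2a, Tubb3, Kif23, Kif14, Kif5b, Tubg1, Kif24, Kif18a, Tubg2 and Kif16b, from 47.6% to 22.3%. Tubb3 was at 71.9 and 68.6 FPKM in WT 1-cell embryos, 34.7% of its mean in the WT GV oocyte, and Kif23 at 52.8 and 47.1, or 31.4%. Kif20b, which acts in the last step of cytokinesis, was at 12.3 and 8.22 FPKM from 22.9 and 23.2, or 44.6%. Kif20b, Kif23, Kif2a, which takes microtubule minus ends apart at spindle poles, and Kif5c fell on the deposited scale by 1.12, 1.65, 1.36 and 1.15 and were higher in the WT 1-cell embryo before the factor, by 0.84, 0.39, 0.61 and 0.62 (limma adjusted p = 0.00943, 0.0245, 0.0355 and 0.0184). The fifth member higher on that scale was Kif1b, a kinesin-3 that carries mitochondria and vesicles, with 0.89 (limma adjusted p = 0.00357).

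Between the WT 1-cell and WT 2-cell stages, 13 members were lower and 2 higher on the deposited scale (limma), against 29% and 9.45% of all genes. Before the factor the order turned, with 3 lower and 11 higher, against 14.9% and 20% of all genes. Under quantile normalization 8 were lower and 8 higher, against 26.3% and 20%. The members that fell on both scales were Kif23, Tubb3 and Kif20b. Kif23 was at 52.8 and 47.1 FPKM in WT 1-cell and 4.55 and 5.57 in WT 2-cell embryos, a log2 difference of -3.07 ± 0.18 (limma adjusted p = 3.2e-06; -2.28 before the factor). Tubb3 was at 71.9 and 68.6 and then 11.5 and 5.66 FPKM, a difference of -2.96 ± 0.42 (limma adjusted p = 4.2e-04; -2.1 before the factor), and Kif20b differed by -1.85 ± 0.20 (limma adjusted p = 1.0e-04; -1.24). The 2 stages did not overlap for any of these 3 members.

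The 2 members that rose on the deposited scale were Tubb5 and Tuba1b, both of which also rose before the factor. Tubb5 was at 4.27 and 3.78 FPKM in WT 1-cell and 9.68 and 8.43 in WT 2-cell embryos, a log2 difference of 1.0 ± 0.28 (limma adjusted p = 0.0179; 2.11 before the factor). Tuba1b, a widely expressed alpha-tubulin, was at the floor in both WT 1-cell libraries and at 3.0 and 2.04 FPKM in WT 2-cell embryos, a difference of 0.80 ± 0.23 (limma adjusted p = 0.0221; 1.18). Of the 150-base windows of its annotated transcripts, 57.9% occur in another gene, as do 54.72% for Tuba1a and 46.7% for Tuba1c, so how reads were split among these alpha-tubulins is uncertain. The rises of Tubb5 and Tuba1b rested on every library or nearly so: Tubb5 lost its call without any 1 of the 4 libraries (adjusted p of 0.0591 to 0.121), and Tuba1b without WT 1-cell replicate 1, WT 1-cell replicate 2 or WT 2-cell replicate 1 (0.0792 to 0.167). Fewer members were called lower without WT 1-cell replicate 1 or without either WT 2-cell library, in fits that leave 1 library in a group. The further members called higher before the factor alone included Kif5b at 1.31, Tuba3b at 1.28, Kif11 at 1.17, Tuba1c at 1.10, Kif22 at 0.98, Tubg1 at 0.89 and Kif2c at 0.86 on the log2 scale. On the deposited scale the differences of these members were 0.29, 0.51, 0.28, 0.12, 0.00, -0.07 and -0.06, none of them called.

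In GV oocytes, 0 members were called higher and 0 lower in KO than in WT (limma; 0.584% of all genes were higher and 1.04% lower as deposited, and 0.876% and 1.69% before the factor, where the members again gave 0 and 0), and the median member differed by -0.03 on the log2 scale. At an unadjusted p under 0.05 there was 1 in each direction: Kif13b, an endosomal kinesin, at 1.2 and 1.19 in WT and 1.42 and 1.75 FPKM in KO, and Kif15, a kinesin-12 of the spindle, at 1.22 and 1.41 and at 1.18 and 1. Both are close to the floor. The most abundant member, Tubb4b, overlapped between the genotypes, as did Kif22, at 181 and 137 FPKM in KO, and Tubb2a, at 289 and 201. The differences of the 36 members ran from -0.33 to 0.29.

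In 1-cell embryos, 23 of the 36 members were higher in KO than in WT on the deposited scale and 0 lower (limma), where 52.7% of all genes were higher and 0.0974% lower. These 23 were 14 kinesins and 9 tubulins. The median member was 0.72 higher on the log2 scale, and the median of all genes was 0.57 higher. Before the factor 6 members were higher and 2 lower, against 7.36% and 2.26% of all genes. Both medians were 0, with genes at the common floor counted as 0. Under quantile normalization 7 were higher and 6 lower, against 12.8% and 16.4%, and of the latter Kif13b and Kif15 were at the floor in all 4 libraries as deposited. In a fit of the 4 libraries of 1-cell embryos alone 0 members were called in either direction, against 5.38% of all genes higher and 0.00885% lower, so the calls of this comparison rest on the spread estimated over all 12 libraries. Fewer members were called higher on the deposited scale without WT 1-cell replicate 2 or without KO 1-cell replicate 2. The KO library with the higher values for most of the members named here was replicate 2, which also had the larger factor.

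The 6 members that were higher in KO 1-cell embryos on both scales were the kinesins Kif2c and Kif22 and the tubulins Tubb2a, Tubb6, Tuba3a and Tuba3b. Tubb2a was at 10.2 and 8.0 FPKM in WT against 40.2 and 79.1 in KO 1-cell embryos, a log2 difference of 2.51 ± 0.33 (limma adjusted p = 5.1e-04) and of 1.59 (0.0132) before the factor. Kif2c was at 3.03 and 2.32 in WT and 13.1 and 23.8 in KO, a difference of 2.35 ± 0.32 (limma adjusted p = 5.6e-04) and of 1.62 (0.00785) before the factor. Tubb6 was at 17.4 and 17.1 in WT and 61.5 and 137 in KO, a difference of 2.34 ± 0.35 (limma adjusted p = 9.8e-04) and of 1.37 (0.0429) before the factor. In each of these genes both KO libraries lay above both WT libraries, and KO replicate 2 was the higher. Tuba3a, an alpha-tubulin known from testis, was at 5.63 and 5.82 in WT and 22 and 42.1 FPKM in KO, a difference of 2.23 ± 0.30 (limma adjusted p = 5.3e-04; 1.35 before the factor). Its near copy Tuba3b was at 1.62 and 1.56 in WT and 5.45 and 13.3 in KO, a difference of 1.89 ± 0.34 (limma adjusted p = 0.00226; 1.27), and 2.647% and 2.214% of the 150-base windows of these transcripts occur in another gene. Kif22 was at 6.24 and 5.35 in WT and 17.7 and 31.5 in KO, a difference of 1.86 ± 0.27 (limma adjusted p = 7.7e-04; 0.97 before the factor). As a share of the KO GV mean, KO 1-cell embryos held 34% of Kif2c, 15.5% of Kif22, 24.4% of Tubb2a and 20.4% of Tuba3a, where WT 1-cell embryos held 4.72%, 3.41%, 3.74% and 3.59% of the WT GV mean. The sum over all genes stood at 43.2% in KO and 19.2% in WT, so these genes lay below it in both genotypes. All these percentages carry the library factors. The summed oocyte markers were likewise higher in KO than in WT 1-cell embryos, as was the sum of the 5 transcripts known from the 2-cell stage. Of these, 4 were at the floor in each 1-cell group, and the sum was higher still in GV oocytes (40.4 to 49.51 FPKM). The part of either set in the result was not tested.

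**Figure D2:**
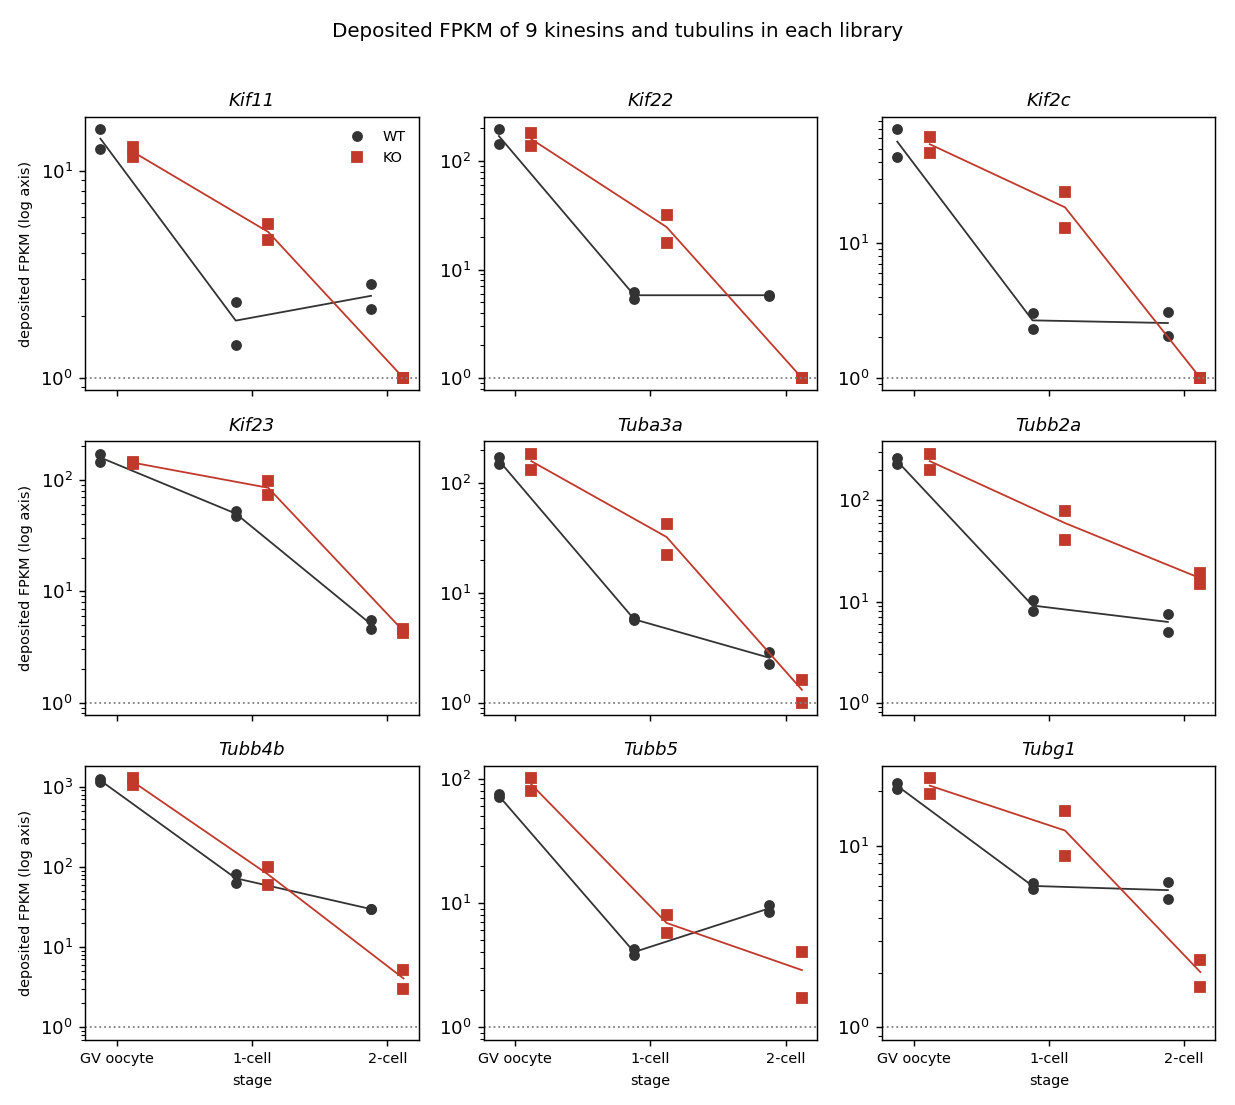
Deposited FPKM (log axis) of 9 members in each library, WT as black circles and KO as red squares, with lines through the group means of 2 libraries and the floor dotted. At the 1-cell stage all but Tubb4b, which overlaps, have both KO libraries above both WT libraries, and Kif22, Kif2c, Tuba3a and Tubb2a were called higher on both scales. Kif11, Kif22 and Kif2c reach the floor in both KO 2-cell libraries, and Tubb2a alone of the 9 lies higher in KO at the 2-cell stage.

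Other members were at least 2-fold higher in KO 1-cell embryos on the deposited scale alone. Tuba4a was at 5.47 and 4.09 FPKM in WT against 9.56 and 17.4 in KO (log2 difference 1.28 ± 0.25, limma adjusted p = 0.0032; 0.40 before the factor). Kif11 was at 2.34 and 1.45 in WT and 4.64 and 5.52 in KO (1.08 ± 0.20, limma adjusted p = 0.00221; 0.38 before the factor). Kif18a, a kinesin-8 that damps chromosome movement at metaphase, was at 11.8 and 7.04 in WT and 20.9 and 20.3 in KO (1.09 ± 0.22, limma adjusted p = 0.0038), with 0.14 before the factor and -0.01 under quantile normalization. Groups did not overlap for these 3 genes. Tubg2 was at 18.4 and 19.1 in WT and 26.5 and 63.1 in KO (1.08 ± 0.34, limma adjusted p = 0.0243), with 0.09 before the factor and -0.08 under quantile normalization. Its call was lost without WT 1-cell replicate 1 (adjusted p = 0.0847), WT 1-cell replicate 2 (0.0910) or KO 1-cell replicate 2 (0.138), and without the last the difference was 0.47.

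Of the abundant beta-tubulins, Tubb4b and Tubb3 were not called on the deposited scale. Tubb4b, at 81.3 and 63.1 FPKM in WT against 60.1 and 101 in KO 1-cell embryos, overlapped between the groups on the deposited scale (0.12 ± 0.28, limma adjusted p = 0.934), and before the factor it was lower in KO by 0.91 (limma adjusted p = 0.0422), at 139 and 182 against 302 and 297 FPKM. Kif3a was the other member that was lower before the factor, at 4.98 and 6.67 against 8.53 and 10.1 FPKM (limma adjusted p = 0.0274), and on the deposited scale it was at 2.3 and 2.15 in WT and 2.15 and 3.68 in KO. Tubb3 was at 71.9 and 68.6 in WT and 82.8 and 189 in KO, with both KO libraries above both WT libraries and far apart, a difference of 0.82 ± 0.42 that was not called (limma adjusted p = 0.135; -0.20 before the factor).

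**Figure D3:**
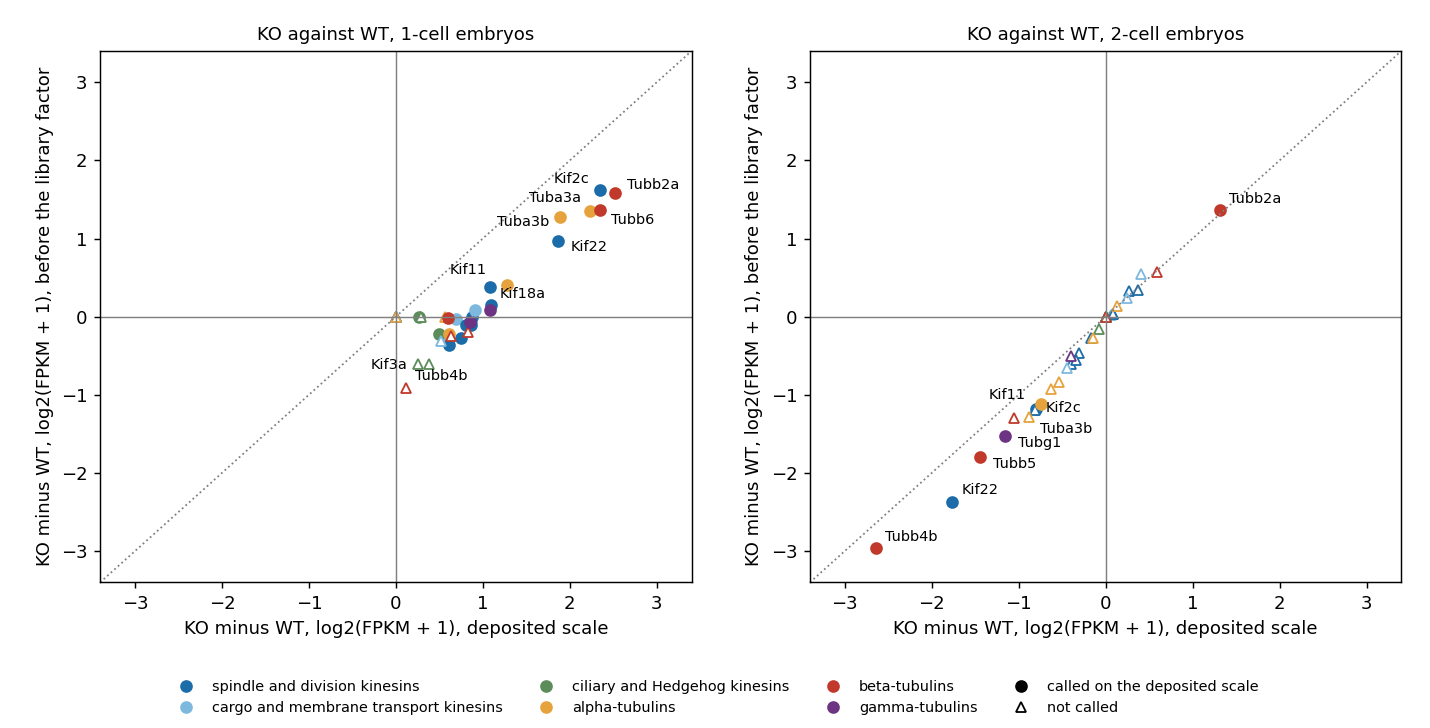
Difference between KO and WT in log2(FPKM + 1) for each of the 36 members in 1-cell (left) and 2-cell embryos (right), on the deposited scale (horizontal) and before the library factor (vertical), coloured by role and filled where called on the deposited scale. In 1-cell embryos the points lie on or below the dotted line of equality, with 23 called higher on the deposited scale and 6 before the factor; in 2-cell embryos they lie near it, from Tubb4b at -2.64 to Tubb2a at 1.32.

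In 2-cell embryos, 6 members were lower in KO than in WT and 1 was higher on the deposited scale (limma), against 12% and 7.56% of all genes. The median member differed by -0.11 on the log2 scale, and the median of all genes was 0. Genes at the floor in all 4 libraries enter these medians as exactly 0. At the floor in both KO libraries were 36.1% of the members and 52.5% of all genes, and in both WT libraries 22.2% and 43.8%. The 2 medians thus differ in how many such genes they hold. Before the factor 12 members were lower and 2 higher, against 17.8% and 10.6% of all genes, and the 7 members called on the deposited scale were called in the same direction there. Under quantile normalization 7 were higher and 10 lower, against 23.9% and 19.2%, and of the 7 Kif13b and Kif15 were at the floor in all 4 libraries as deposited. In a fit of the 4 libraries of 2-cell embryos alone 0 were higher and 3 lower (Kif22, Tubb4b and Kif18b), against 3.13% and 5.27%. Members of 1 family differed in opposite directions: Tubb4b and Tubb5 were lower while Tubb2a was higher.

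Tubb4b was at 30.1 and 29.4 FPKM in WT against 5.13 and 2.98 in KO 2-cell embryos. Both KO libraries lay far below both WT libraries, 7.34 times lower by the means. The log2 difference was -2.64 ± 0.28 (limma adjusted p = 2.3e-04; -2.96 before the factor). Of the 150-base windows of Tubb4b, 16.84% occur in a pseudogene copy, so part of its reads could have been assigned elsewhere. Tubb5 was at 9.68 and 8.43 in WT and 4.04 and 1.72 in KO, a difference of -1.44 ± 0.28 (limma adjusted p = 0.00585; -1.80 before the factor). Its groups did not overlap, and without WT 2-cell replicate 1 the difference was -1.35 (adjusted p = 0.0596). Tubg1 was at 6.3 and 5.09 in WT and 1.67 and 2.36 in KO, a difference of -1.16 ± 0.25 (limma adjusted p = 0.00974; -1.53 before the factor). Again the KO libraries were the lower, and the call was lost without WT 2-cell replicate 1 (adjusted p = 0.0886) or KO 2-cell replicate 1 (0.0815). Tubg2 was at 14.9 and 12.3 in WT and 8.84 and 11.3 in KO and was not called (-0.40 ± 0.34, limma adjusted p = 0.647). Tuba1c was at 3.01 and 2.7 in WT and 1.65 and 1 in KO, a difference of -0.74 ± 0.22 (limma adjusted p = 0.0442; -1.12 before the factor) that lost its call without any 1 of the 4 libraries (adjusted p of 0.0501 to 0.280) and with the replicate number as a block (0.0699).

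The kinesins called lower were Kif22 and Kif11. Kif22 was at 5.73 and 5.86 FPKM in WT and at the floor in both KO 2-cell libraries, so it was at least 5.8-fold lower in KO on the deposited scale. The fitted log2 difference was -1.76 ± 0.27 (limma adjusted p = 0.00157; -2.37 before the factor), and its call held without any 1 library, as that of Tubb4b did. Kif11 was at 2.15 and 2.84 in WT and at the floor in both KO libraries, at least 2.49-fold lower, with a fitted difference of -0.80 ± 0.20 (limma adjusted p = 0.0189; -1.18, 8.3e-04, before the factor). The call of Kif11 was lost without WT 2-cell replicate 2 (adjusted p = 0.142), KO 2-cell replicate 1 (0.0927) or KO 2-cell replicate 2 (0.0969). In all, 6 members (16.7%) were at the floor in both KO 2-cell libraries and above it in both WT 2-cell libraries, against 10.1% of all genes, and 0 members were so the other way round, against 2.89%. Besides Kif22 and Kif11 the 6 comprised Kif2c at 2.05 and 3.06 FPKM in WT, Kif20a at 1.73 and 1.53, Kif18b at 1.52 and 1.41 and Tuba3b at 3.05 and 2.33. Kif20a brings the chromosomal passenger complex to the central spindle, and Kif18b limits the length of astral microtubules. Kif2c was not called on the deposited scale (-0.82 ± 0.32, limma adjusted p = 0.119) and was called before the factor (-1.20, 0.0112). The other members called lower only before the factor were Tuba3b, Tuba3a, Tuba1b, Kif5b and Kif18b, with -1.28, -0.92, -0.84, -0.65 and -0.47. Other division kinesins were not called: Kif18a was at 5.44 and 5.09 in WT and 5.68 and 5.64 in KO, Kif23 at 4.55 and 5.57 and at 4.54 and 4.23, and Kif2a at 6.41 and 9.32 and at 10.7 and 10 FPKM.

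Tubb2a was the member higher in KO 2-cell embryos, at 14.8 and 19.2 FPKM against 7.51 and 5.04 in WT. Both KO libraries lay above both WT libraries, 2.71 times higher by the means. The log2 difference was 1.32 ± 0.33 (limma adjusted p = 0.0214; 1.36, 0.0093, before the factor), and the call was lost on the deposited scale without any 1 of the 4 libraries (adjusted p of 0.0561 to 0.192). Tubb2a shares 27.93% of its 150-base windows with Tubb2b and the pseudogene Tubb2a-ps2. Tubb2b was at the floor in all 4 libraries of this stage, and how reads were split among these copies is uncertain. Before the factor Kif16b, an endosomal kinesin, was also higher in KO (0.55, limma adjusted p = 0.0125), at 16.1 and 15.6 against 9.13 and 12.2 FPKM, and on the deposited scale it was at 2.1 and 1.89 against 1.06 and 1.49 and not called. Tubb6 was at 8.03 and 5.37 in WT and 8.4 and 12.8 in KO and was not called (limma adjusted p = 0.378). With any 1 of the 4 libraries left out, fewer members were called lower in KO. Summed oocyte markers were higher in KO than in WT 2-cell embryos, and their part in these results was not tested. Of the 8 markers, 4 were called higher and 0 lower on the deposited scale (limma), against 7.56% and 12% of all genes. Before the factor 5 were higher and 1 lower, against 10.6% and 17.8%.

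Of 5 division kinesins not yet given at every stage (Kif4, Kif14, Kif2a, Kif20b and Kif20a), 0 were called between the genotypes in the oocyte and 4 were higher in KO 1-cell embryos on the deposited scale alone; where values are set against each other, WT comes first. Kif4 was at 52.1 and 62.7 FPKM in KO GV oocytes, at 5.69 and 5.05 in WT against 10.4 and 9.79 in KO 1-cell embryos (0.80 ± 0.17, limma adjusted p = 0.00422; -0.11 before the factor), and at 1.97 and 2.62 against 2.8 and 2.17 at the 2-cell stage. Kif14, a kinesin of the midbody, was at 13.8 and 13.5 and, in KO, 11.8 and 19.2 in the oocyte, at 4.4 and 4.02 against 8.1 and 9.09 in 1-cell embryos (0.88 ± 0.21, limma adjusted p = 0.00819; 0.00 before the factor) and at 1.28 and 1.53 against 1.65 and 2.15 in 2-cell embryos. Kif2a was at 28.9 and 33.5 and, in KO, 31.3 and 35.9 in the oocyte and at 12.9 and 10.2 against 22.2 and 21.1 in 1-cell embryos (limma adjusted p = 0.00563). These 3 kinesins had KO libraries above both WT libraries at the 1-cell stage. The KO libraries held Kif20b at 25.5 and 24 in GV oocytes and at 15.6 and 16.3 in 1-cell embryos (0.61 ± 0.20 from WT, limma adjusted p = 0.0316; -0.36 before the factor), and at the 2-cell stage the values were 1.63 and 2.6 for WT against 1.48 and 1.39 for KO. Kif20a was at 29.3 and 15.9 and, in KO, 26.4 and 14.5 in the oocyte, with replicates of 1 genotype further apart than the genotypes, and at 4.55 and 3.59 against 5.08 and 13 in 1-cell embryos, where it was not called (limma adjusted p = 0.117).

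Of the kinesins of cilia and cargo, Kif17 kept the highest level and was called in no comparison of KO with WT on the deposited scale, at 102 and 103 FPKM in KO GV oocytes, 14.1 and 11.7 against 13.1 and 22.3 in 1-cell embryos and 5.65 and 4.63 against 4.21 and 5.45 in 2-cell embryos. Kif5c was at 7.0 and 8.31 in KO GV oocytes, at 3.76 and 2.62 against 6.16 and 7.53 in 1-cell embryos (0.91 ± 0.20, limma adjusted p = 0.00565; 0.08 before the factor) and at 2.17 and 2.88 against 3.64 and 2.7 in 2-cell embryos. Kif5b, the kinesin-1 heavy chain found in most cells, was at 5.38 and 7.39 in KO GV oocytes, 2.71 and 2.4 against 3.61 and 4.64 in 1-cell and 2.86 and 3.89 against 2.34 and 2.05 in 2-cell embryos, so that KO was the higher at the first embryo stage and the lower at the next, neither called on the deposited scale. Among the remaining tubulins, Tubg1 was at 23.5 and 19.4 in KO GV oocytes and at 6.23 and 5.78 against 8.76 and 15.5 in 1-cell embryos (0.86 ± 0.25, limma adjusted p = 0.0171; -0.07 before the factor). Tuba1c was at 43.4 and 53.8 in WT and 62.9 and 49.3 in KO GV oocytes and at 2.54 and 2.54 against 3.58 and 5.38 in 1-cell embryos. Tuba1b was above the floor in both KO 1-cell libraries, at 1.58 and 2.39, and at 1.86 and 1 in KO 2-cell embryos. Kif24, Kif9 and Tubb2b were all at the floor in the 4 libraries of 2-cell embryos, after 4.84 and 5.11, 9.82 and 8.32 and 12 and 8.47 FPKM in WT GV oocytes. In 1-cell embryos Tubb2b was at 1.06 and 1.03 against 1.66 and 2.6, Kif24 at 1.43 and 1.34 against 2.07 and 2.72 and Kif9 at the floor in WT against 1.29 and 1.63 in KO.

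The KO effect at the 2-cell stage was then compared with that at the 1-cell stage, with which it shares no library, as a difference of differences in the same fit. On the deposited scale 19 members had a lower KO effect at the 2-cell stage and 0 a higher one (limma), against 35.7% and 0.239% of all genes, and before the factor 8 and 0, against 14.8% and 5.29%. Fewer than these 19 were called without WT 1-cell replicate 2, KO 1-cell replicate 2, WT 2-cell replicate 2 or KO 2-cell replicate 2. Under quantile normalization 10 were lower and 9 higher, against 19.6% and 31.4%, and of the 9 Kif13b and Kif15 were at the floor in all 8 embryo libraries as deposited. The 8 members called on both scales were the kinesins Kif22, Kif2c and Kif11 and the tubulins Tuba3a, Tuba3b, Tubb4b, Tubb5 and Tubg1. The largest of these was Kif22, with a difference of -3.63 ± 0.38 (limma adjusted p = 2.0e-04; -3.34 before the factor), followed by Kif2c with -3.17 ± 0.45 (limma adjusted p = 9.6e-04; -2.82). Kif22 and Kif2c were thus above WT at the 1-cell stage and at the floor, under both WT libraries, at the 2-cell stage. Tubb4b (-2.76 ± 0.40, limma adjusted p = 0.0011; -2.05 before the factor) went from overlapping groups to a lower KO level. Tubb2a was higher in KO at both stages, and the difference between its KO effects at these stages was not called (-1.20 ± 0.47, limma adjusted p = 0.0743; -0.22 before the factor), which does not show that the effects are alike.

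Between the GV and 1-cell stages the KO effect was higher at the 1-cell stage for 14 members and lower for 1 on the deposited scale (limma), against 38.7% and 0.859% of all genes. Before the factor it was called for 0 members in either direction, against 3.57% and 0.947%. Under quantile normalization 2 were higher (Kif2c and Kif3b) and 1 lower, against 5.81% and 2.86%. The 1 lower in both was Kif13b, at the floor in all 4 libraries of 1-cell embryos. Fewer than these 14 were called without WT GV replicate 1, WT 1-cell replicate 2 or KO 1-cell replicate 2. The largest differences on the deposited scale were those of Tubb2a (2.53 ± 0.47, limma adjusted p = 0.00555), Tubb6 (2.45 ± 0.50, 0.00799) and Kif2c (2.39 ± 0.45, 0.00589). Before the factor these were 1.60, 1.47 and 1.65, with limma adjusted p of 0.119, 0.211 and 0.0821.

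The make-up of the beta-tubulin transcripts can be read within a library, where the factor cancels for genes above the floor. It was given as the share of each isotype in the summed FPKM of the 6 beta-tubulins. Tubb4b made up 58.3% and 60.1% of the sum in WT GV oocytes and 58.1% and 59.9% in KO GV oocytes. In 1-cell embryos it made up 43.7% and 39% in WT and 23.9% and 19.5% in KO, and in 2-cell embryos 44.4% and 53.6% in WT and 14.2% and 7.11% in KO. Thus the shares of Tubb4b overlapped between genotypes in the oocyte and lay apart, lower in KO, in both kinds of embryo. Tubb2a made up 12.1% and 12% in WT and 13.2% and 11.5% in KO GV oocytes, 5.51% and 4.95% and 16% and 15.3% in 1-cell embryos, and 11.1% and 9.18% and 41% and 45.8% in 2-cell embryos. In KO 2-cell embryos Tubb2a was therefore the isotype with the highest share in both libraries, where Tubb4b was in WT.

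Tubb6 followed Tubb2a, with 14.9% and 14.5% in WT and 13.9% and 14.4% in KO GV oocytes, 9.33% and 10.6% and 24.4% and 26.5% in 1-cell embryos and 11.8% and 9.78% and 23.3% and 30.5% in 2-cell embryos. Tubb3 peaked at the 1-cell stage in both genotypes, with 38.6% and 42.4% in WT and 32.9% and 36.6% in KO, from 10.9% and 8.96% in WT GV oocytes, and stood at 17% and 10.3% in WT and 7.5% and 10.1% in KO 2-cell embryos. Tubb5 grew in WT from 2.29% and 2.34% in 1-cell to 14.3% and 15.3% in 2-cell embryos, and in KO from 2.29% and 1.56% to 11.2% and 4.1%, with the 2-cell values of KO below those of WT. Of the alpha-tubulin sum, Tuba3a made up 32.6% and 36.4% in WT and 51% and 51.6% in KO 1-cell embryos. Tuba1a and Tuba1b were at the floor in both WT 1-cell libraries, and Tuba1a in both KO 1-cell libraries, so the factor does not cancel in that sum. Over the 4 isotypes above the floor in all 4 libraries, Tuba3a made up 36.9% and 41.6% in WT and 54.2% and 53.9% in KO. Of the gamma-tubulin sum Tubg2 made up 70.3% and 70.7% in WT and 84.1% and 82.7% in KO 2-cell embryos. Shares of a sum move together, and between 2 libraries and 2 an exact permutation test cannot go below a two-sided p of 0.333, so the shares are given as a description.

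**Figure D4:**
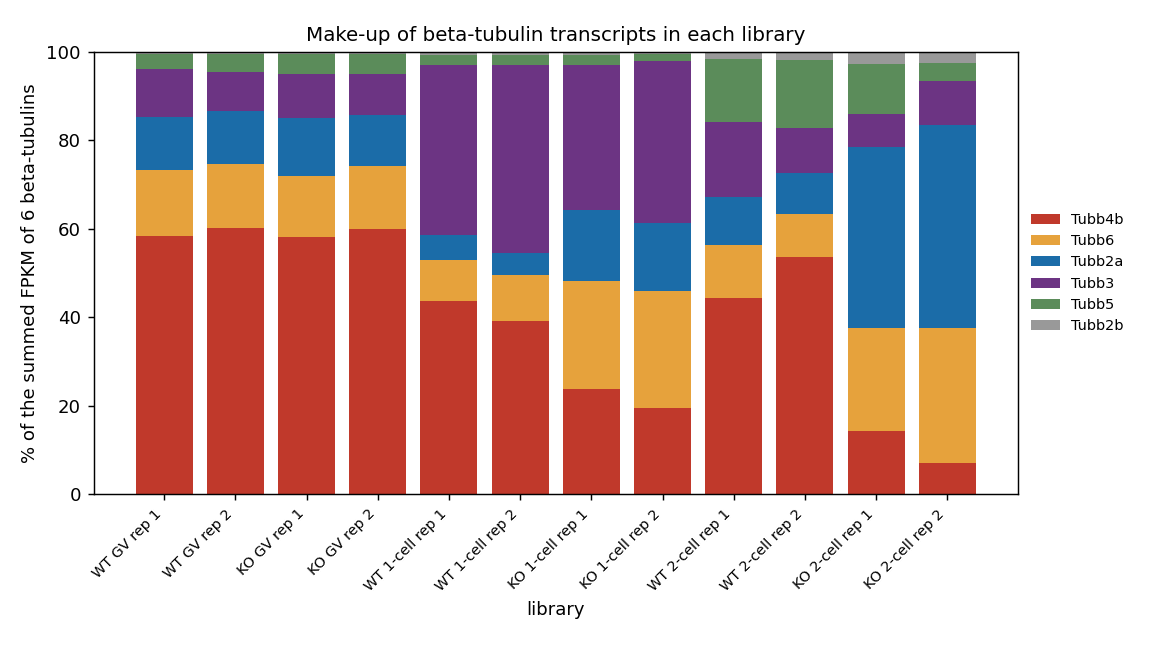
Share (%) of each of the 6 beta-tubulins in their summed FPKM, as a stacked bar for each of the 12 libraries. Tubb4b makes up more than any other isotype in the 4 oocyte libraries, from 58.1% to 60.1%, and 14.2% and 7.11% of the sum in the KO 2-cell libraries, where Tubb2a makes up 41.0% and 45.8%.

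Other genes of the microtubule system, listed apart from the kinesins and tubulins, moved in both directions. In KO against WT 2-cell embryos on the deposited scale (limma; percentages of all genes as given above), 3 of 17 genes of tubulin folding and modification were higher and 3 lower. The tubulin cofactor Tbcb, which binds alpha-tubulin, was at 7.55 and 7.8 FPKM in WT against 1 and 1.13 in KO (-2.07 ± 0.16, limma adjusted p = 3.7e-05; -2.71 before the factor). Tbca, the cofactor that takes up beta-tubulin, was at 20.5 and 24.4 in WT and 72.9 and 75.7 in KO (1.69 ± 0.16, limma adjusted p = 1.1e-04; 1.65 before the factor). So these cofactors differed in opposite directions. Of 30 microtubule-binding and severing proteins, 3 were higher and 7 lower, among the latter Prc1, which bundles antiparallel microtubules of the central spindle and is a partner of Kif4 (10.9 and 12.1 in WT, 2.62 and 3.27 in KO), and Tpx2, a spindle assembly factor that binds Kif11 (4.85 and 6.19 in WT, 1.84 and 1.37 in KO). Of 15 genes of the gamma-tubulin ring and augmin complexes 1 was higher and 3 lower, of 21 genes of dynein and dynactin 1 and 1, and of 6 kinesin-14 motors and kinesin partners 0 and 0.

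In 1-cell embryos on the deposited scale, 11 of the 15 ring and augmin genes, 11 of the 17 folding genes, 12 of the 21 dynein and dynactin genes, 21 of the 30 binding and severing proteins and 3 of the 6 motors and partners were higher in KO, and 0 lower, where 52.7% of all genes were higher. Of all genes 0.0974% were lower. Before the factor these counts were 1, 3, 1, 1 and 0 higher and 0, 1, 1, 3 and 0 lower, against 7.36% and 2.26% of all genes. In GV oocytes 0 genes of the 5 lists were called in either direction on the deposited scale, against 0.584% of all genes higher and 1.04% lower.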

How the data were processed

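The authors deposited 1 table of FPKM values with 1 column for each of 12 Smart-seq2 libraries; TopHat2 2.1.1, Cufflinks 2.2.1 and the build mm9 are named, per the submitters' processing notes. The table held 11298 complete entries, and a last entry with missing values was left out. Library factors were recovered as the number that makes 100% of the values above the floor whole in their sixth digit (tolerance 0.01), and values divided by them form the scale before the factor, with each comparison set to its own highest floor. Values were tested as log2(FPKM + 1) with limma 3.58.1 in R 4.3.3 (intensity trend, all 12 libraries in 1 fit, two-sided, Benjamini-Hochberg over all genes, threshold 0.05), after tests on simulated data. Fold changes on this scale understate those of low genes. Genes at the floor in every library of a group show no spread there. The members and lists were chosen with earlier results of these data known. Values in every library were planned for members with a mean of at least 20 FPKM in a group or a called change of at least 2-fold. Alternatives were the scale before the factor, quantile normalization, a pseudocount of 0.1, a mean of at least 5 FPKM, only the groups compared, the replicate number as a block, and leaving out each library. No gene coordinates on mm9 were used here.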

Additional observations from a re-analysis of the deposited data

Results flagged for a closer look

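The results below were taken up because the difference between KO and WT itself differed between stages by at least 2-fold, tested as a difference of differences with limma over all 12 libraries (adjusted p under 0.05, deposited scale, log2 values).

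From the GV to the 1-cell stage the KO effect was higher for the division kinesins Kif2c (2.39), Kif22 (1.95), Kif11 (1.27) and Kif18a (1.12), for the cargo kinesin Kif5c (1.00), for the beta-tubulins Tubb2a (2.53) and Tubb6 (2.45) and for the alpha-tubulins Tuba3a (2.26), Tuba3b (1.69) and Tuba4a (1.45). None of these 10 was called before the library factor, and under quantile normalization Kif18a was at -0.0059 and Kif5c at -0.025. Leaving out 1 of 8 libraries at a time, calls were lost without 5 of them for Kif18a (adjusted p of 0.0548 to 0.0758), 4 for Kif5c (0.0680 to 0.0986), 4 for Tuba3b (0.0519 to 0.102) and 2 for Tuba4a (0.0534 to 0.0610), and no call was lost for the other 6 genes.

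From the 1-cell to the 2-cell stage the KO effect was lower for the kinesins Kif22 (-3.63), Kif2c (-3.17), Kif11 (-1.88) and Kif18a (-1.0). Among the alpha-tubulins it was lower for Tuba3a (-2.86), Tuba3b (-2.77), Tuba4a (-1.42), Tuba1c (-1.35) and Tuba1b (-1.11). Among the beta-tubulins it was lower for Tubb4b (-2.76), Tubb5 (-2.08), Tubb3 (-1.88) and Tubb6 (-1.76), and it was lower for the gamma-tubulins Tubg1 (-2.01) and Tubg2 (-1.49). Before the factor 8 of these 15 were still called, those named in the comparison above, and under quantile normalization Kif18a was at 0.26. Calls were lost without 7 of the 8 libraries for Kif18a (adjusted p of 0.0564 to 0.102) and for Tubg2 (0.0570 to 0.135), 6 for Tubb3 (0.0603 to 0.144) and Tubb6 (0.0527 to 0.105), 5 for Tuba1b (0.0620 to 0.105) and 3 for Tuba4a (0.0526 to 0.0672).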

How the results depend on the processing

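The library factor is the choice that moved most results. Counts of members called before the factor, under quantile normalization and, where a further value is given, with only the groups compared in the fit were as follows. In KO against WT 1-cell embryos they were 6, 7 and 0 higher (23 as deposited) and 2 and 6 lower (0). In KO against WT 2-cell embryos they were 2, 7 and 0 higher (1) and 12, 10 and 3 lower (6). From WT GV oocytes to WT 1-cell embryos they were 5 and 11 higher (0) and 17 and 13 lower (35), and from there to WT 2-cell embryos 11 and 8 higher (2) and 3 and 8 lower (13). For the KO effect, 1-cell minus GV, they were 0, 2 and 7 higher (14) and, lower (1), 0 before the factor, with the filter on low values, with only the groups compared and with the replicate block. For 2-cell minus 1-cell they were 9 higher under quantile normalization (0) and 8, 10 and 13 lower (19). A fit of only the groups compared has fewer libraries to estimate the spread. For the KO effects between stages, the share of all genes called in that fit is not given here.

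Leaving out 1 library at a time gave 0 to 1 higher (Kif13b) and 0 to 1 lower (Kif15) in GV oocytes, 12 to 28 higher in 1-cell embryos, 0 to 1 higher and 3 to 4 lower in 2-cell embryos, 33 to 34 lower from WT GV to WT 1-cell, and 0 to 1 higher and 6 to 11 lower from WT 1-cell to WT 2-cell. The share of all genes called in these fits is not given here, so the changes in number do not describe the members in particular.

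Directions turned for 10 of 66 gene results under quantile normalization and for 5 before the factor, and the cause was not tested. For WT GV to WT 1-cell embryos the 66 held the 6 largest falls and 4 further genes. These 4 were picked because they were called in the other direction before the factor. Their turning was thus fixed by the choice, and the 10 and 5 are not rates for the members. From WT GV to WT 1-cell embryos the values before the factor and under quantile normalization were 0.84 and 1.22 for Kif20b, 0.39 and 0.93 for Kif23, 0.61 and 1.03 for Kif2a and 0.62 and 0.84 for Kif5c, and from WT 1-cell to WT 2-cell embryos 0.20 and 0.064 for Kif18a. Under quantile normalization alone, KO against WT in 1-cell embryos was -0.0077 for Kif18a and -0.085 for Tubg2, the KO effect of 1-cell minus GV was -0.0059 for Kif18a and -0.025 for Kif5c, and that of 2-cell minus 1-cell was 0.26 for Kif18a. A further 29 of the 66 kept their direction but lost their call before the factor, as did 21 under quantile normalization and 27 with only the groups compared; the pseudocount of 0.1 and the filter on low values changed 0 of 66.

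Replicate numbers were not treated as pairs in the main fit. The correlation across genes of the replicate differences of WT and KO was 0.166 in GV oocytes, -0.08 in 1-cell and -0.248 in 2-cell embryos. These values do not show whether the libraries were collected in pairs. With the replicate number as a block, 2 of 66 calls were lost, Tuba1c in 2-cell embryos (-0.74, limma adjusted p = 0.0699) and Tubb3 in the KO effect of 2-cell minus 1-cell (-1.88, 0.0517). Depth is unknown, and levels under 1 FPKM on the deposited scale cannot be told apart.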
